A study of Sus scrofa with 9 samples.

Results

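The genes described here encode the chains of the collagens, measured as mRNA in the abdominal aorta of Tibetan minipigs fed a normal or a high-fat diet. A gene was taken as a collagen chain when its name in the deposited table was COL, a number, A and a number, and 29 of the 21357 genes of the table met this rule. The rule reads names alone. They comprised 10 fibrillar chains, 5 basement membrane chains and 14 other chains.

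Collagens are built from chains that wind around each other in groups to form a triple helix, and either chains of the same gene or chains of different genes can combine. Fibrillar collagens, mainly types I and III with smaller amounts of type V, form the load-bearing fibers of the arterial media and adventitia. Type IV collagen with types XV and XVIII belongs to the basement membranes around smooth muscle cells and under the endothelium, and the remaining types decorate fibrils, form microfibrils or networks, or sit in the cell membrane. Collagen is made in the arterial wall by smooth muscle cells and fibroblasts, and it accumulates in the fibrous part of atherosclerotic lesions.

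The data were 9 RNA-seq libraries of whole abdominal aorta, 3 for each of 3 groups. The labels gave the normal control (NC) pigs a normal diet for 24 weeks, the hypercholesterolemia (H8) pigs a high-fat diet for 8 weeks and the atherosclerosis (H24) pigs a high-fat diet for 24 weeks. The NC and H24 pigs were males bought at 3 to 4 months of age and acclimatized for 4 weeks, and the added fat of the H24 diet came from shortening oil, cholesterol and egg yolk powder. The age and the sex of the H8 pigs were not given in the sources used here. H8 differed from NC in the diet and in the weeks on it, so the effects of diet and of age cannot be told apart in that comparison. The libraries held 44094263 to 75787978 estimated counts in all. The tissue labels name the abdominal aorta, although the label of the extraction protocol speaks of an adipose type. The tissue was sequenced in bulk, so a lower level of a chain because of fewer cells of a type and one because of less RNA per cell cannot be told apart.

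H24 replicate 3 stood apart. On log2(FPKM + 0.1) over genes averaging 0.1 FPKM or more, it correlated with NC libraries at 0.7949 to 0.7969 and with the other H24 libraries at 0.85 to 0.8866, whereas the libraries of NC correlated with each other at 0.9605 to 0.9643. The summed level of 6 smooth muscle markers (MYH11, ACTA2, TAGLN, CNN1, SMTN and LMOD1) was 11610 to 13560 FPKM in NC, 9731 to 13320 in H8, and 7926, 11470 and 1702 in H24 replicates 1 to 3. The summed level of 6 macrophage markers (CD68, CD163, CSF1R, MRC1, TYROBP and MSR1) was 18.4 to 23.2 FPKM in NC, 19.9 to 115 in H8, and 207, 128 and 1365 in the same H24 replicates. In H24/NC, 0 of the 6 smooth muscle markers passed the call thresholds given with the first comparison (median log2 fold change -0.88) and 6 of the 6 macrophage markers rose (median 4.39). The summed level of 5 endothelial markers was 49.1 to 129 FPKM in NC, 33.0 to 59.2 in H8 and 58.3 to 92.4 in H24. Beside each set of comparisons with H24, values without that library are given, and the part of these cell types in the results was not tested.

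Levels are given in FPKM, which scales a count by transcript length and library depth, so that levels of different chains can be compared. COL10A1, a chain of hypertrophic cartilage, was listed at 0 in all 9 libraries. COL2A1, the main chain of cartilage, stayed between 0.0309 and 0.190 FPKM. Of the 29 chains, 25 had a mean of at least 0.1 FPKM over the libraries of each comparison and were tested, and COL2A1, COL11A2, COL10A1 and COL26A1 did not. COL11A2, also a cartilage chain, was at 0.0200 to 0.226 FPKM and COL26A1 at 0 to 0.0905. Thus 8 of 10 fibrillar chains, all 5 basement membrane chains and 12 of 14 other chains were tested.

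**Figure D1:**
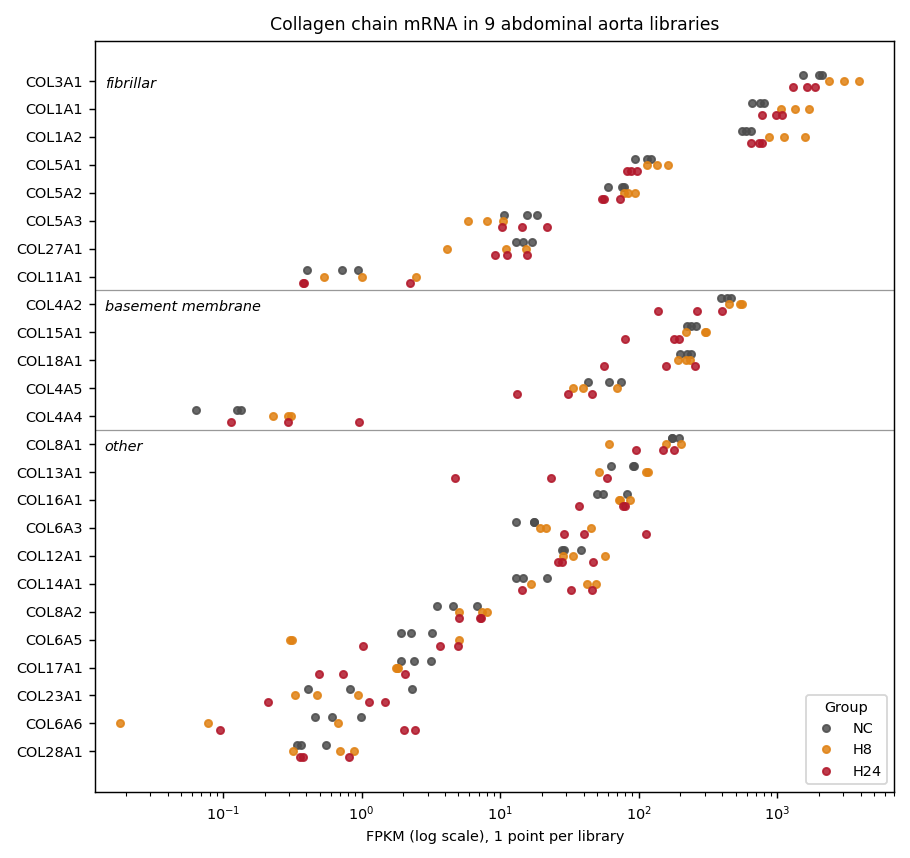
FPKM of the 25 tested collagen chains (log axis), ordered by class and by mean level, with 1 point per library in NC (grey), H8 (orange) and H24 (red). COL3A1, COL1A1 and COL1A2 lie above all other chains in every library, and COL4A4 lies below 1 FPKM in every library.

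The interstitial fiber chains COL3A1, COL1A1 and COL1A2 held the highest levels. COL3A1, the single chain of type III collagen, had 1543, 1996 and 2099.7 FPKM in NC, 2353, 3894 and 3025 in H8 and 1878, 1631 and 1289.9 in H24. It ranked 9 among all genes by its mean over the 9 libraries. COL1A1, the major chain of type I collagen, had 661, 805 and 751 FPKM in NC, 1068, 1352 and 1681 in H8 and 771, 1089 and 981 in H24. COL1A2, its partner in type I collagen, had 555, 591 and 649.9 FPKM in NC, 875, 1586 and 1121 in H8 and 735, 648 and 779.8 in H24. All 3 H8 libraries were above all 3 NC libraries for each of these chains. Together they made up 65.1% to 68.6% of the FPKM of the named chains in NC, 72.4% to 81.2% in H8 and 69.9% to 79.8% in H24.

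The type V chains, which nucleate fibrils and limit their width, were lower. COL5A1 had 93.9, 123 and 115 FPKM in NC, 115, 135 and 162 in H8 and 87.6, 96.7 and 82.4 in H24. COL5A2 had 59.9, 75.3 and 78.5 FPKM in NC, 78.5, 93.5 and 84.3 in H8 and 73.1, 56.2 and 54.4 in H24. COL5A3 had 10.6, 15.7 and 18.6 FPKM in NC, 10.5, 5.84 and 8.01 in H8 and 21.8, 14.4 and 10.3 in H24. For COL5A1 and COL5A2 the H24 libraries lay below the H8 libraries, and for COL5A3 the H8 libraries lay below the NC libraries. The remaining fibrillar chains are best known from cartilage. COL27A1 had 17.1, 13.1 and 14.5 FPKM in NC, 10.95, 4.13 and 15.4 in H8 and 11.2, 15.6 and 9.12 in H24, and the groups overlapped. COL11A1 had 0.403, 0.720 and 0.948 FPKM in NC, 0.540, 1.004 and 2.46 in H8 and 0.380, 0.383 and 2.25 in H24, with the highest values in H8 replicate 3 and H24 replicate 3.

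The basement membrane chains were led by COL4A2, a chain of the common type IV network. COL4A2 had 396, 434 and 464 FPKM in NC, 536, 446 and 553 in H8 and 263, 397 and 137 in H24. COL15A1, a proteoglycan of the basement membrane zone, had 258, 225 and 239 FPKM in NC, 300.4, 219 and 306 in H8 and 179, 196 and 79.9 in H24. COL18A1, which carries the endostatin fragment, had 199.5, 237 and 225 FPKM in NC, 193, 221 and 234 in H8 and 157, 253 and 56.2 in H24. H24 replicate 3 was the lowest of all 9 libraries for each of these chains. COL4A5, a type IV chain of smooth muscle basement membranes, had 74.4, 42.9 and 60.9 FPKM in NC, 33.4, 39.4 and 69.99 in H8 and 30.7, 46.0 and 13.2 in H24. COL4A4, which pairs with COL4A3 and COL4A5 in kidney basement membranes, had 0.127, 0.135 and 0.0636 FPKM in NC, 0.311, 0.297 and 0.232 in H8 and 0.296, 0.114 and 0.958 in H24. COL4A4 rested on 28 to 68 counts per NC library, 117 to 143 per H8 library and 34 to 389 per H24 library, the fewest of the basement membrane chains.

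Among the other chains, COL8A1, a short-chain network collagen of vessel walls, had 175, 197 and 173 FPKM in NC, 61.3, 156 and 201 in H8 and 181, 149.9 and 95.4 in H24. COL13A1, a transmembrane collagen at cell adhesion sites, had 62.8, 90.3 and 92.5 FPKM in NC, 118, 52.0 and 112 in H8 and 23.3, 58.7 and 4.73 in H24. All H24 libraries were below all NC libraries for COL13A1, and H24 replicate 3 was the lowest. COL6A3, a chain of the type VI microfibrils around cells, had 17.6, 13.0 and 17.7 FPKM in NC, 21.5, 19.2 and 45.3 in H8 and 29.1, 40.2 and 113 in H24. Every H8 and every H24 library was above every NC library for COL6A3. COL14A1, which binds the surface of collagen fibrils, had 13.1, 21.7 and 14.7 FPKM in NC, 42.3, 49.1 and 16.8 in H8 and 46.0, 14.3 and 32.5 in H24, so that H8 replicate 3 and H24 replicate 2 overlapped NC. Of the remaining tested chains, COL16A1 ranged from 36.9 to 85.8 FPKM and COL12A1 from 26.2 to 56.8, both fibril-associated, and the network chain COL8A2 from 3.51 to 8.02. COL6A5 and COL6A6 of type VI, the transmembrane chains COL17A1 and COL23A1, and COL28A1 were at 0.0179 to 5.08 FPKM in all 9 libraries.

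In NC the order of mean levels of the named chains ran COL3A1, COL1A1, COL1A2, COL4A2, COL15A1, COL18A1, COL8A1 and COL5A1. Of the 26 pairs of neighbors in the order of the 27 chains above 0 in NC, 14 had overlapping ranges. COL15A1 (240.4 ± 16.5 FPKM, SD, n = 3) and COL18A1 (220.5 ± 19.2 FPKM, SD, n = 3) were such a pair, as were COL13A1, COL5A2, COL16A1 and COL4A5 in succession. The 4 chains at the top did not overlap their next neighbor in this order. COL6A1, which has an identifier in place of a name, was left out of it. At 435, 511 and 449 FPKM in NC, COL6A1 overlapped COL4A2.

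The first question was what differed after 8 weeks of the high-fat diet. Both type I chains rose in H8, as did COL14A1 and the low-level COL4A4, and no chain fell. A chain was called where the log2 fold change passed 1 in size with an unadjusted p under 0.05 in edgeR's quasi-likelihood test, the thresholds used in the study. In H8/NC, 4 of the 25 tested chains were called up (5.11% of all tested genes) and 0 were called down (2.27% of all tested genes). No chain passed an adjusted p of 0.05 in edgeR, where 7 chains had an unadjusted p under 0.05. DESeq2 passed 3 chains (COL1A1, COL1A2 and COL4A4) with 8 at an unadjusted p under 0.05, and limma passed 0 with 5. Of all 14336 tested genes, 4 passed an adjusted p of 0.05 in edgeR, 815 in DESeq2 and 26 in limma. Over all chains the median log2 fold change was 0.41, against 0.01 over all 14336 tested genes, and 17 of the 25 chains were higher, where 51.5% of all genes were. The median was 0.66 for the fibrillar chains, 0.32 for the basement membrane chains and 0.37 for the other chains. With limma on log2(FPKM + 1) these medians were 0.35, 0.18 and 0.16, and scaling by library size alone gave 0.50, 0.18 and 0.24. The fibrillar median was 0.40 without H8 replicate 3, and the median of the other chains was 0.24 without NC replicate 1.

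COL1A1 (chromosome 12, 26379000 to 26397284, Sscrofa11.1) rose by a log2 fold change of 1.02 (SE 0.23, edgeR adjusted p = 0.187), from 739 ± 73.2 to 1367 ± 307 FPKM (SD, n = 3 each). COL1A2 (chromosome 9, 74174220 to 74210398) rose by 1.16 (SE 0.28, edgeR adjusted p = 0.201), from 598 ± 48.1 to 1194 ± 361 FPKM. COL3A1 (chromosome 15, 93556914 to 93596360) was higher by 0.87 (SE 0.28, unadjusted p = 0.016 in edgeR) and so missed the fold threshold, although its groups did not overlap. COL5A1 and COL5A2 were higher by 0.44 (SE 0.20) and 0.41 (SE 0.19), below both thresholds. COL5A3 went the other way, at -0.76 (SE 0.26, unadjusted p = 0.0224 in edgeR), also short of the fold threshold. Among fibrillar chains the groups thus did not overlap for COL1A1, COL1A2 and COL3A1 with H8 higher, and for COL5A3 with H8 lower.

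The basement membrane chains of high level did not pass the thresholds. COL4A2 was higher by 0.38 (SE 0.17), COL15A1 by 0.32 (SE 0.16) and COL18A1 by 0.11 (SE 0.18), and COL4A5 was at -0.19 (SE 0.30). The direction of COL18A1 changed when libraries were scaled by size alone. COL4A4 (chromosome 15, 128476257 to 128611996) rose by 1.5 (SE 0.47, edgeR adjusted p = 0.239), at levels below 1 FPKM. Its locus shares 22694 bases with RHBDD1 on the opposite strand, which was at 2.43 to 5.29 FPKM, and the strand setting of the counting was not given in the sources used here, so reads of both genes cannot be told apart there.

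Of the other chains, COL14A1 rose by 1.29 (SE 0.43, edgeR adjusted p = 0.262), with H8 replicates 1 and 2 high and H8 replicate 3 within reach of NC. The COL14A1 row (chromosome 4, 18690198 to 19146555) is 1.94 times as long as the RefSeq gene and covers most of the RefSeq location of DEPTOR (18969509 to 19180131), for which the table had no row, so its counts may include reads of that gene. COL6A3 was higher by 0.96 (SE 0.31, unadjusted p = 0.0169 in edgeR), just short of the fold threshold. Across all chains, 5 had H8 libraries all above NC (6.91% of all tested genes), namely COL1A1, COL1A2, COL3A1, COL4A4 and COL6A3. The H8 libraries were all below NC for 2 chains (15.9% of all tested genes), COL5A3 and COL17A1, a transmembrane chain of epithelial attachment. The COL17A1 row is 1.57 times as long as the RefSeq gene and overlaps SLK on the opposite strand, which averaged 5.02 FPKM. COL17A1 counts may thus include reads of SLK.

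COL1A1, COL1A2 and COL14A1 kept their H8/NC calls in 3, 5 and 2 of the 6 fits with a library left out. Without H8 replicate 2, which had the highest COL1A2 and COL3A1, 2 chains were called up (591 of all 14384 tested genes). COL1A2 was then at 0.80, COL1A1 at 0.96 and COL14A1 at 0.91. Without H8 replicate 1, 7 chains were called up and 2 down (678 and 427 of all 14377 tested genes), and COL14A1 lost its call at 1.19. COL1A1 lost its call without H8 replicate 3 (0.89) and without NC replicate 1 (0.93), and COL14A1 without NC replicate 1 (1.13) and NC replicate 3 (1.20). COL4A4 kept its call with each of the 6 libraries left out. H8 replicate 2 also had the highest sum of 6 fibroblast markers, 993 FPKM, against 505 and 442 in the other H8 libraries and 336 to 431 in NC, and the part of fibroblasts in the collagen difference was not tested. The sum of the 5 adipocyte markers was 49.1 to 140.3 FPKM in H8 and 89.7 to 157 in NC, so the groups overlapped. Of the 4 that were tested, ADIPOQ, PLIN1 and CIDEC fell in H8/NC, with ADIPOQ at or under 0.106 FPKM in H8 and at 4.44 to 14.6 in NC. FABP4, the most abundant, was at -0.06 (SE 0.48) and not called.

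**Figure D2:**
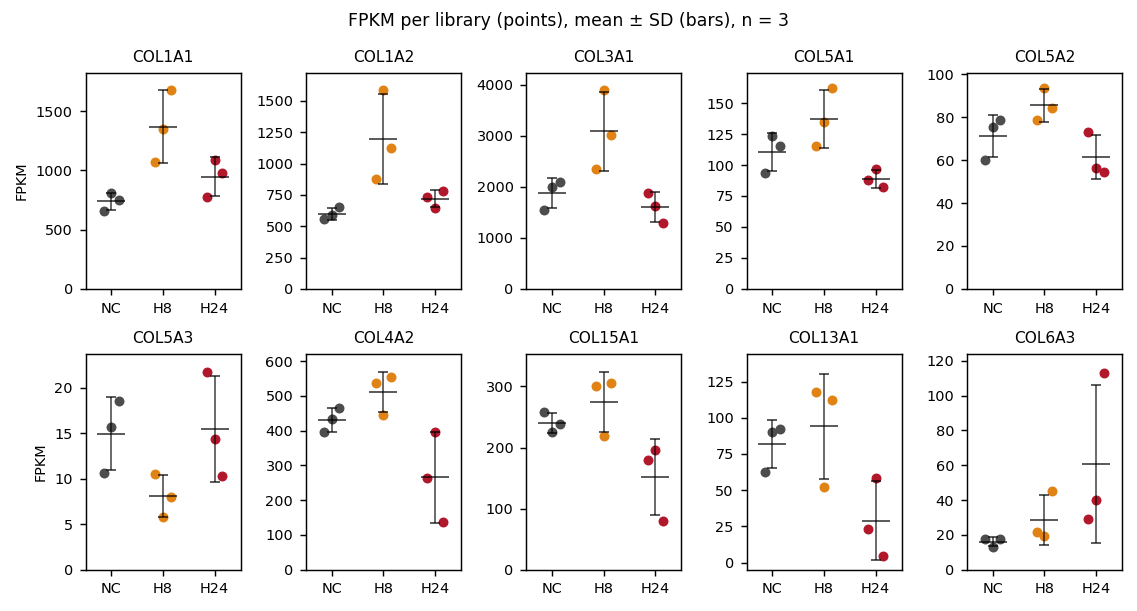
FPKM (linear axes) of 10 collagen chains in each library of NC, H8 and H24, with points for libraries and bars for mean ± SD (n = 3). COL1A1, COL1A2 and COL3A1 are highest in H8, COL4A2, COL15A1 and COL13A1 are lowest in H24, and COL6A3 reaches 113 FPKM in H24 replicate 3.

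The next question was how 24 weeks of the high-fat diet differed from 8 weeks of it. The age of the H8 pigs was not given, so the effects of weeks on the diet and of age cannot be told apart here either. Of the 25 tested chains, 18 were lower in H24 than in H8 and 7 higher, where 53% of all tested genes were higher, and COL15A1 fell. In H24/H8, 0 of the 25 tested chains were called up (7.22% of all tested genes) and 1 was called down (3.05% of all tested genes). Again 0 chains passed an adjusted p of 0.05 in edgeR, with 3 at an unadjusted p under 0.05. DESeq2 passed 2, COL3A1 and COL5A1, with 9 at an unadjusted p under 0.05, and limma passed 0 with 5. Of all 14788 tested genes, 2 passed an adjusted p of 0.05 in edgeR, 714 in DESeq2 and 1 in limma. The median log2 fold change was -0.46 over all chains, against 0.04 over 14788 genes. It was -0.69 for the fibrillar, -0.82 for the basement membrane and -0.35 for the other chains. Scaling by library size alone moved the median of all genes to 0.24 and that of the chains to -0.28. The split of all calls then moved from 70.3% to 83.3% up.

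The H24 libraries were all below the H8 libraries for 6 chains (6.31% of all tested genes), and all above for 0 (15.5% of all tested genes). These were COL3A1, COL1A2, COL5A1, COL5A2, COL4A2 and COL15A1. COL15A1 (chromosome 1, 240710270 to 240829188) fell by 1.02 on the log2 scale (SE 0.43, edgeR adjusted p = 0.360). COL3A1 was at -1.15 (SE 0.51) and COL4A2 at -1.10 (SE 0.50), both past the fold threshold with unadjusted p = 0.0578 and 0.0623 in edgeR. COL5A1 was at -0.80 (SE 0.28, unadjusted p = 0.0237) and COL5A2 at -0.67 (SE 0.28, unadjusted p = 0.0448) in edgeR, both short of the fold threshold. COL1A1, in contrast, was at -0.70 (SE 0.44) with overlapping groups, and COL5A3 at 0.76 (SE 0.33).

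Without H24 replicate 3, COL15A1 was at -0.71 and not called, while COL3A1 (-1.01, SE 0.38), COL13A1 (-1.32, SE 0.51) and COL11A1 (-1.96, SE 0.65) were called down, with edgeR adjusted p-values of 0.401 to 0.434. In that fit 365 of all 14589 tested genes were called down. The median was then -0.73 for the fibrillar, -0.65 for the basement membrane and -0.21 for the other chains. Without H24 replicate 2 the medians were -0.76, -1.31 and -0.20 in the same order. For the other chains the median was -0.05 without H8 replicate 2 and -0.20 without H8 replicate 3. Without H24 replicate 2, 5 chains were called down (684 of all 14715 tested genes). Without any H8 library in turn or H24 replicate 1, 0 were (248 to 484 of all tested genes). Without H8 replicate 1, 2 of the 26 chains then tested were called up (890 of all 14882 tested genes).

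**Figure D3:**
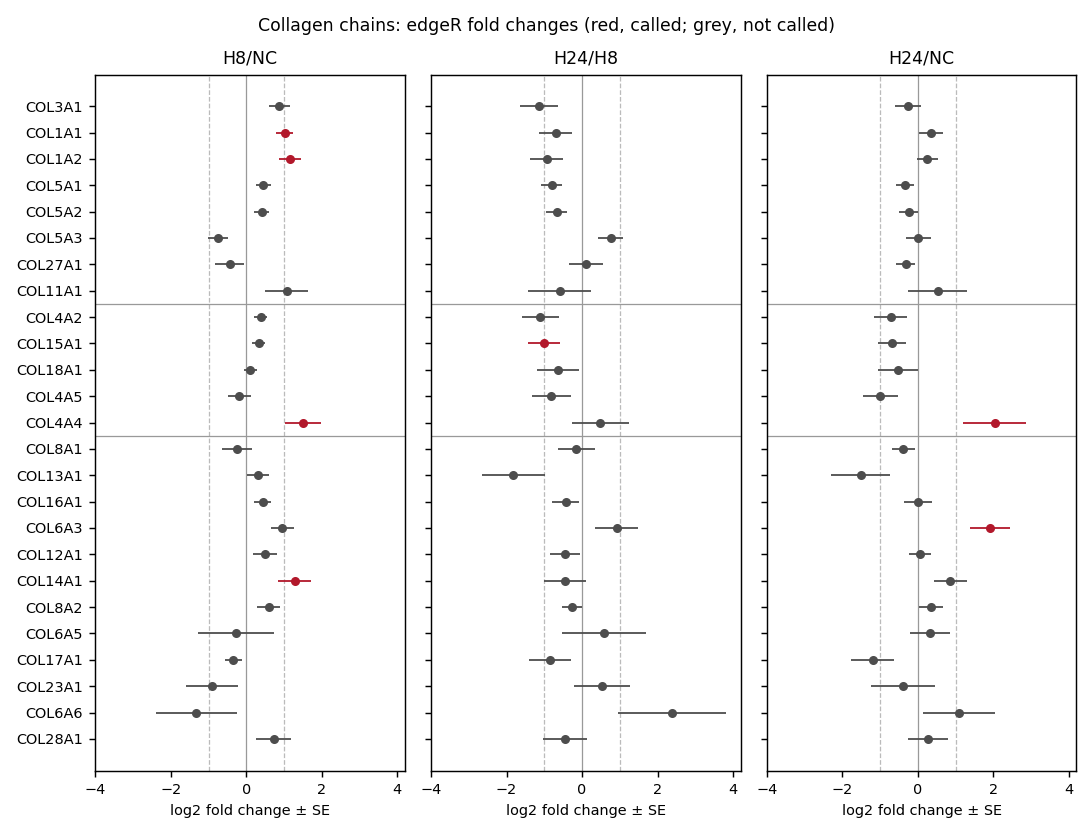
Log2 fold changes ± SE (edgeR) of the 25 tested chains in H8/NC, H24/H8 and H24/NC, ordered by class and level, with called chains in red and dashed lines at a log2 fold change of 1 in size. The type I chains, COL14A1 and COL4A4 are called in H8/NC, COL15A1 in H24/H8, and COL6A3 and COL4A4 in H24/NC.

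The third question was what differed between the high-fat and the normal diet at the same 24 weeks. Here the fibrillar chains lay near NC, the high-level basement membrane chains were lower without passing the thresholds, and COL6A3 rose. In H24/NC, 2 of the 25 chains were called up (9.95% of all tested genes) and 0 were called down (1.52% of all tested genes). The adjusted p passed 0.05 for 0 chains in edgeR, where 2 had an unadjusted p under 0.05. DESeq2 passed 1, COL6A3, with 5 at an unadjusted p under 0.05, and limma passed 0 with 4. Of all 14828 tested genes, 0 passed an adjusted p of 0.05 in edgeR, 1004 in DESeq2 and 10 in limma. The median log2 fold change was 0.01 over all chains and 0.01 over all 14828 tested genes. Of the chains, 13 were higher and 12 lower, where 50.6% of all tested genes were higher. By class, the medians differed. The median was -0.12 for the fibrillar, -0.68 for the basement membrane and 0.16 for the other chains. Leaving out H24 replicate 3 gave medians of -0.15, -0.38 and 0.23, and without H24 replicate 2 they were -0.08, -1.11 and 0.01. The median of the other chains turned to -0.11 without H24 replicate 1 and was 0.44 without NC replicate 2. The fibrillar median lay between -0.27 (without H24 replicate 1) and -0.0018 (without NC replicate 3) with each library left out.

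COL6A3 (chromosome 15, 137011430 to 137104085) rose by 1.91 (SE 0.53, edgeR adjusted p = 0.193), from 16.1 ± 2.72 to 60.7 ± 45.5 FPKM (SD, n = 3 each). H24 replicate 3 set much of that mean and of its SD. Without it the log2 fold change was 1.09 (SE 0.24, edgeR adjusted p = 0.0877) and the call remained, as it did with each of the other libraries left out. COL6A3 was also the only chain whose H24 libraries were all above NC (12.8% of all tested genes). COL4A4 rose by 2.04 (SE 0.83, edgeR adjusted p = 0.346), with H24 replicate 2 inside the NC range. It was called in 1 of the 6 fits with a library left out, and was at 0.87 without H24 replicate 3.

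The H24 libraries were all below NC for 2 chains (7.80% of all tested genes), COL13A1 and COL15A1. COL13A1 (chromosome 14, 72787602 to 72953095) was at -1.52 (SE 0.78, edgeR adjusted p = 0.449). Without H24 replicate 3 it fell by 1.01 (SE 0.42, edgeR adjusted p = 0.439) and was called down. COL15A1 was at -0.68 (SE 0.37), COL4A2 at -0.72 (SE 0.43), COL4A5 at -0.998 (SE 0.46) and COL18A1 at -0.52 (SE 0.52). Without H24 replicate 3 these were at -0.38, -0.40, -0.64 and -0.12. The same library held the lowest smooth muscle marker sum, 1702 FPKM, and the lowest basement membrane chain sum, 287 FPKM.

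The large fibrillar chains did not pass the thresholds in H24/NC. COL1A1 was at 0.34 (SE 0.32), COL1A2 at 0.25 (SE 0.28) and COL3A1 at -0.26 (SE 0.34), and the groups overlapped for each. COL5A1 was at -0.34 (SE 0.24), COL5A2 at -0.25 (SE 0.24) and COL5A3 at 0.01 (SE 0.34). Without H24 replicate 2, 4 chains were called up and 4 down (1795 and 456 of all 14775 tested genes). Without any NC library, H24 replicate 1 or H24 replicate 3 in turn, 1 was called up (946 to 1569 of all tested genes). COL13A1 was called down without H24 replicate 3 (186 of all 14578 tested genes).

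As summed levels, the named collagen chains took 1.58% to 1.92% of all FPKM in NC, 2.18% to 2.86% in H8 and 1.23% to 1.77% in H24. Genes with an identifier in place of a name were left out of these sums. Among them was COL6A1, at 465 ± 40.3 FPKM in NC, 523 ± 83.9 in H8 and 448 ± 88.3 in H24. The fibrillar sum was 3430 ± 427 FPKM in NC, 5894 ± 1292 in H8 and 3446 ± 206 in H24 (SD, n = 3 each). The basement membrane sum was 952 ± 32.6 FPKM in NC, 1051 ± 119 in H8 and 603 ± 303 in H24. The sum of the other chains was 402 ± 41.8, 427 ± 75.1 and 374 ± 49.0 FPKM. The fibrillar sums of H8 (4512 to 7072 FPKM) lay above those of NC (2940.3 to 3728 FPKM) and of H24 (3209 to 3578 FPKM), without overlap. In H24 replicates 1 and 2, without the library that stood apart, the fibrillar sum was 3578 and 3552 FPKM, the basement membrane sum 631 and 892, and the sum of the other chains 422 and 377. The share of all FPKM was 1.68% and 1.77% in these libraries.

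**Figure D4:**
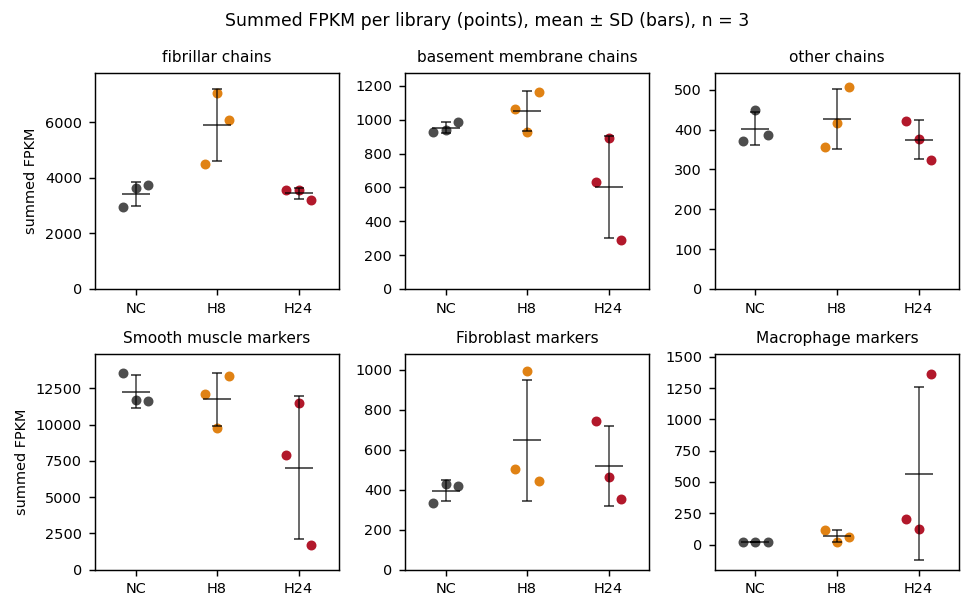
Summed FPKM (linear axes) of all named fibrillar, basement membrane and other chains and of the smooth muscle, fibroblast and macrophage markers, with points for libraries and bars for mean ± SD (n = 3). The fibrillar sum is highest in H8, and H24 replicate 3 has the lowest basement membrane and smooth muscle sums and the highest macrophage sum.

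Ratios of FPKM within a library compare chains on the same scale, and were given no test. COL1A1/COL1A2, whose chains share type I collagen, was 1.24 ± 0.111 in NC, 1.19 ± 0.324 in H8 and 1.33 ± 0.322 in H24 (SD, n = 3), and its group means lay within 1 SD of each other. COL5A1/COL5A2 was 1.56 ± 0.0872, 1.61 ± 0.268 and 1.48 ± 0.263. COL8A1/COL8A2 was 49.71, 28.96 and 37.85 in NC, 12.19, 21.17 and 25.06 in H8 and 25.3, 29.86 and 13.15 in H24. Its H8 libraries lay below NC without overlap, and H24 overlapped both groups. COL4A5/COL4A6 ran from 0.738 to 0.8332 in NC, 0.6845 to 1.186 in H8 and 0.5315 to 0.9671 in H24, with overlapping groups. The COL4A6 row has an identifier in place of a name, and runs from 88634928 to 88658941 on chromosome X, 299674 bases from the COL4A5 row. Whether the COL4A6 row covers the whole gene was not checked, so this ratio may not compare the chains on the same scale. COL5A3/COL5A1 was 0.134 ± 0.0250 in NC, 0.0613 ± 0.0259 in H8 and 0.174 ± 0.0655 in H24, and the H8 libraries lay below all others. COL1A1/COL3A1, type I over type III, was 0.396 ± 0.0357, 0.452 ± 0.104 and 0.613 ± 0.181, with overlapping groups. COL4A2/COL1A1 was 0.585 ± 0.0414 in NC, 0.387 ± 0.0995 in H8 and 0.282 ± 0.123 in H24, and both diet groups lay below NC. COL6A3/COL6A1 (the COL6A1 row has an identifier in place of a name) was 0.0351 ± 0.00845, 0.0532 ± 0.0182 and 0.154 ± 0.147, with 0.0616, 0.0771 and 0.323 in the H24 libraries. In H24 replicates 1 and 2, COL1A1/COL1A2 was 1.05 and 1.68, COL5A1/COL5A2 was 1.2 and 1.72, and COL1A1/COL3A1 was 0.411 and 0.668. COL5A3/COL5A1 was 0.248 and 0.149 there, above H8, and COL4A2/COL1A1 was 0.341 and 0.364, below NC. For ratios with an untested chain, COL11A1/COL11A2 was 5.228, 35.98 and 30.14 in NC and 26.03, 26.65 and 25.39 in H8. It was 3.747, 7.083 and 9.934 in H24, below H8, with NC replicate 1 inside the H24 range. COL11A2 rested on 12 to 109 counts per library, so few reads can change this ratio. COL4A4/COL4A3 ran from 1.724 to 5.602 in NC, 2.617 to 6.195 in H8 and 2.74 to 5.753 in H24, with overlapping groups. The COL4A3 row also has an identifier in place of a name.

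**Figure D5:**
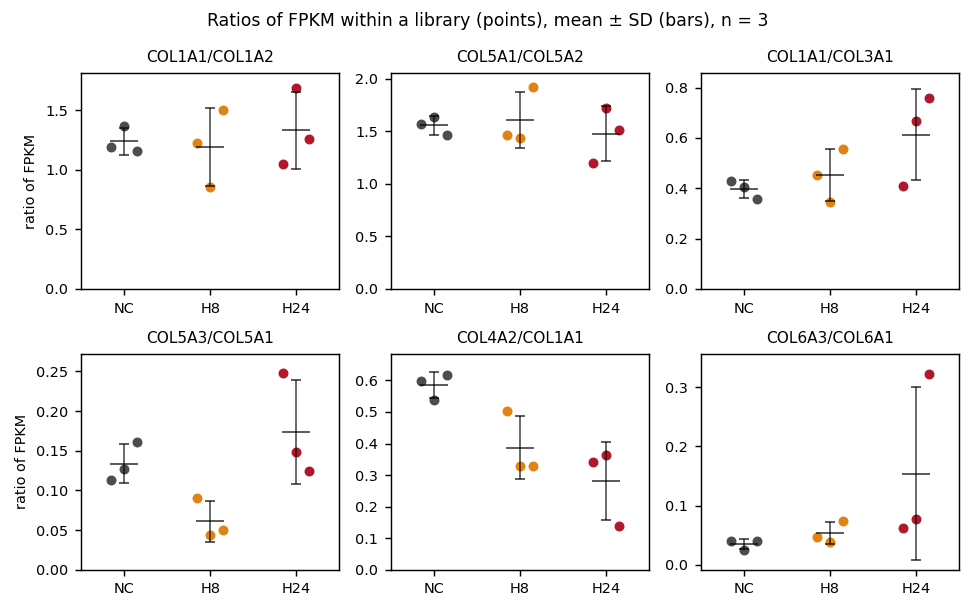
Ratios of the FPKM of paired collagen chains within each library (linear axes), with points for libraries and bars for mean ± SD (n = 3) in NC, H8 and H24. The COL1A1/COL1A2 and COL5A1/COL5A2 ratios overlap between groups, COL5A3/COL5A1 is lowest in H8, and COL6A3/COL6A1 reaches 0.323 in H24 replicate 3.

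Genes that process, cross-link, bind and degrade collagen were counted by lists. Over all tested genes, 5.11% were called up and 2.27% down in H8/NC, 9.95% and 1.52% in H24/NC, and 7.22% and 3.05% in H24/H8. These shares stand beside the counts of each list below. Without H24 replicate 3, 946 of all 14578 tested genes were called up and 186 down in H24/NC. In H24/H8, 547 of 14589 were then up and 365 down. The list of collagen synthesis and processing held 26 genes, such as prolyl and lysyl hydroxylases and the chaperone HSP47. Of these, 2 were called up and 0 down in H8/NC, and 25 were higher, where 51.5% of all tested genes were. The smallest p-values were those of SERPINH1, which encodes HSP47 (0.81, SE 0.19), the prolyl hydroxylase subunit P4HA2 (0.70, SE 0.17) and the lysyl hydroxylase PLOD3 (0.46, SE 0.13), none past the fold threshold. The 2 called genes, named after their values were seen, were the prolyl hydroxylase subunit P4HA1 (1.04) and the procollagen processing enhancer PCOLCE (1.05). The median of the list was 0.33 in H8/NC, 0.30 in H24/NC and -0.05 in H24/H8. In H24/NC 2 were called up and 0 down, and in H24/H8 1 up and 2 down. The smallest p-values in H24/NC were those of PCOLCE (0.78, not called), P4HA3 (1.03) and ADAMTS14 (1.18), an amino-terminal procollagen peptidase. In H24/H8 ADAMTS14 rose by 1.53, and PCOLCE2, a second enhancer, and the prolyl hydroxylase P3H2 fell by 1.81 and 1.16. Without H24 replicate 3, 1 gene (P4HA3) was called up in H24/NC, 1 (ADAMTS14) in H24/H8 and 0 were called down. The median of the list was then 0.18 in H24/NC and -0.23 in H24/H8.

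Of the 14 genes of crosslinking and fibril assembly, 1 was called up and 0 down in H8/NC, 2 up and 0 down in H24/NC, and 2 up and 1 down in H24/H8. The median was 0.57, 0.33 and -0.06. The lysyl oxidase-like LOXL4 rose by 1.66 (SE 0.43) in H8/NC and fell by 1.11 in H24/H8. LUM, a small proteoglycan that spaces fibrils, rose by 2.69 (SE 0.33, edgeR adjusted p = 0.127) in H24/NC, and the matrix protein POSTN by 2.11 (SE 0.32, edgeR adjusted p = 0.132). LUM had 15.3, 19.1 and 16.9 FPKM in NC and 145, 69.6 and 123 in H24, with no overlap. Without H24 replicate 3, LUM rose by 2.61 and POSTN by 1.93, with edgeR adjusted p-values of 0.00875 and 0.0165. In that setting FMOD, a fibril-binding proteoglycan, was also called up in H24/NC (1.04), so that 3 genes were up, and LOXL4 was at -1.13 in H24/H8 and not called, so that 2 were up and 0 down. The median of the list was then 0.38 in H24/NC and -0.06 in H24/H8. LUM is also a fibroblast marker.

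Of the 10 collagen receptor genes, 9 were tested in H8/NC, where 1 was called up and 0 down, and all 10 were tested in the comparisons with H24, where 2 were up in H24/NC and 3 in H24/H8, and 0 down. LAIR1, an inhibitory receptor of immune cells, rose by 4.59 (SE 0.96) in H24/NC, and the integrin subunit ITGA11 by 1.3 (SE 0.29). The median was -0.17, 0.73 and 1.16 in H8/NC, H24/NC and H24/H8. Of the 11 genes of the breakdown list, 7 were tested, and 1, 4 and 1 were called up in H8/NC, H24/NC and H24/H8, with 0 called down. The 7 tested genes include the inhibitors TIMP1, TIMP2 and TIMP3, so the counts and medians of this list mix proteases with inhibitors. MMP1 and CTSK were not found by name, and MMP8 and MMP13 averaged under 0.1 FPKM, so these proteases were not tested. The median of the breakdown list was 0.35, 1.05 and 0.68. MMP9, a gelatinase of macrophages and neutrophils, rose by 2.68 in H8/NC (SE 0.41, edgeR adjusted p = 0.0937) and by 9.0 in H24/NC (SE 1.79, edgeR adjusted p = 0.132). It had 0.352, 0.174 and 0.375 FPKM in NC, 2.39, 1.09 and 1.80 in H8 and 13.0, 14.7 and 437 in H24. The protease FAP rose by 1.05 (SE 0.28) and the inhibitor TIMP1 by 1.25 (SE 0.36) in H24/NC. The fourth gene called in H24/NC was the membrane protease MMP14 (1.44, SE 0.51), named after its values were seen. Without H24 replicate 3, MMP9 rose by 5.51 and LAIR1 by 2.80 in H24/NC, with edgeR adjusted p-values of 0.0046 and 0.00726, and MMP14 (0.69) and FAP (0.98) were not called. The integrin subunit ITGA10 was then called up in H24/NC (1.02), so that 3 receptor genes and 2 breakdown genes were up. In H24/H8 LAIR1 was then at 1.11 and not called, while MMP9 (2.83) and TIMP1 (1.02) rose, so that 2 genes of each list were up. The median of the receptor list was then 0.64 in H24/NC and 1.11 in H24/H8, over 9 tested genes, and that of the breakdown list 0.69 and 0.28. H24 replicate 3 held the highest LAIR1, MMP9 and macrophage marker sum of the 9 libraries, and the part of macrophages in these differences was not tested.

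Some chains share a locus or a pathway label. COL3A1 and COL5A2 are neighbors on chromosome 15, 15188 bases apart on opposite strands, and COL6A6 and COL6A5 lie 81406 bases apart on chromosome 13. A gene of 136 bases without a name lies inside COL3A1 and held counts equal to 1.5% to 2.56% of those of COL3A1. All 22 chains with a KEGG label in the table carried that of protein digestion and absorption, and 8 carried those of ECM-receptor interaction and of focal adhesion.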

How the data were processed

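Bulk RNA of 9 abdominal aortas was sequenced, 3 per group. The authors aligned their cleaned reads with HISAT2 2.0, using Sscrofa11.1 as the genome, and made transcripts and FPKM values with StringTie 1.3.0. The labels also name Bowtie and a mouse build, but the gene identifiers and positions of the table were those of the pig. The deposited table gives, per gene and library, an estimated count and an FPKM value. How the counts were derived, and whether strand was used, was not given in the sources used here.

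Groups came from the sample labels. Each pair of groups was fitted on the deposited estimated counts for all genes averaging 0.1 FPKM or more, with edgeR 4.0.16 (TMM normalization, quasi-likelihood test, Benjamini-Hochberg adjustment over all tested genes) in R 4.3.3. The standard error is the log2 fold change divided by the square root of the F statistic. DESeq2 1.42.0 and limma 3.58.1 on log2(FPKM + 0.1) were alternatives, with other normalizations and filters, a fit of all 9 libraries, a replicate block and each library left out. The edgeR step was tested on simulated data. The p-values measure the spread between 3 pigs a group, which the labels do not pair.

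Collagen chains were every gene so named. Values in every library are given for the 10 with the highest mean, for called chains, and for tested fibrillar and basement membrane chains. Of each list of other genes, at most 3 per comparison are named, by the smallest p, except where stated. Classes and lists, like the chains themselves, were chosen with earlier results of these data known. The ratios COL1A1/COL3A1, COL5A3/COL5A1, COL6A3/COL6A1 and COL4A2/COL1A1 were chosen after seeing the data.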

Additional observations from a re-analysis of the deposited data

How the results depend on the processing

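Directions of called chains did not reverse under any alternative run. Counts of calls moved more. In H24/NC, 1 chain was called up with limma on log2(FPKM + 0.1) or log2(FPKM + 1), at a mean FPKM of at least 1 and with the replicate block, and 1 to 4 with a library left out. Called down were 2 with DESeq2, 3 and 2 with limma (pseudocount 0.1 and 1), 1 in the fit of all 9 libraries, 2 with the replicate block, and 0 to 4 with a library left out. Of all 14828 tested genes, 1475 were called up in the main fit, 1196 and 714 with limma and 1114 with the replicate block. At a mean FPKM of at least 1, 1079 of 11346 were up. Called down were 225 genes in the main fit, 294 with DESeq2, 314 and 141 with limma, and 250 with all 9 libraries or the replicate block. With a library left out, 946 to 1795 of all tested genes were up and 137 to 456 down. The median of the chains was -0.23 at a mean FPKM of at least 1, and -0.257 to 0.0883 with a library left out. In H8/NC, 2 chains were called up with library size only, 1 and 0 with limma, and 2 to 7 with a library left out, when 0 to 2 were called down. Of all 14336 tested genes, 733 were called up in the main fit, 576 with library size only, and 454 and 202 with limma. With a library left out, 569 to 796 of all tested genes were up and 251 to 448 down. The median of the chains was 0.25 with library size only, 0.21 with limma on log2(FPKM + 1), and 0.33 to 0.47 with a library left out. Library size only moved the median of all genes in H8/NC from 0.01 to -0.13 and the share of all calls that were up from 69.2% to 55.7% (limma, 47.3%). In H24/H8, 0 chains were called down with library size only, at a mean FPKM of at least 1 and with the replicate block, 4 with DESeq2, 2 with either limma fit, 3 without a filter and 3 in the fit of all 9 libraries, and 0 to 5 with a library left out, when 0 to 2 were called up. The replicate block called 1 up (800 of all 14788 tested genes). Over all tested genes, 451 were called down in the main fit and 290 with library size only. DESeq2 called down 579, the limma fits 348 and 177, the fit of all 9 libraries 500 and the replicate block 475. At a mean FPKM of at least 1, 323 of 11278 were down, and 530 of 18520 without a filter. With a library left out, 248 to 684 of all tested genes were down and 547 to 1407 up. The median of the chains was -0.28 with library size only, -0.26 with limma on log2(FPKM + 1), -0.61 at a mean FPKM of at least 1, and -0.70 to -0.41 with a library left out. By class, the median of the other chains was 0.06 (H24/NC) and -0.08 (H24/H8) with limma on log2(FPKM + 1), and -0.13 in H24/H8 with library size only. The fibrillar median in H24/NC was -0.22 at a mean FPKM of at least 1. Replicate numbers did not pair the pigs (deviations of same-numbered libraries correlated at -0.0798 to 0.0934), so the replicate block is not read further. The cause of these moves was not tested. COL6A3 in H24/NC kept its call under all 10 alternatives, with log2 fold changes of 1.62 to 1.93, and its adjusted p-value was 0.00925 to 0.512 over these and the fits with a library left out. COL4A4 in H8/NC kept its call under 6 of 9, COL1A1 and COL1A2 under 7 of 10, COL14A1 under 9 of 10, COL4A4 in H24/NC under 6 of 9 and COL15A1 in H24/H8 under 4 of 10.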

Other observations

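Beside the chains named in the table, 15 genes with an identifier in place of a name matched a collagen chain by their reference symbol or description, and 9 of them had a mean of at least 0.1 FPKM. COL6A1, a chain of type VI collagen, was the highest, at 465 ± 40.3 FPKM in NC, 523 ± 83.9 in H8 and 448 ± 88.3 in H24 (SD, n = 3 each), with log2 fold changes of 0.30 (SE 0.18) in H8/NC and -0.08 (SE 0.28) in H24/NC. COL4A6, which shares a network with COL4A5, had 76.8 ± 22.3, 56.7 ± 28.2 and 48.0 ± 36.6 FPKM, in a row whose coverage of the whole gene was not checked. Type VII collagen, which anchors epithelial basement membranes, had 18.6 ± 3.76, 10.6 ± 5.21 and 9.98 ± 6.23 FPKM. The fibrillar chain COL24A1 rose in H24/NC by 1.63 (SE 0.66, edgeR adjusted p = 0.344), at 0.143 ± 0.0337 FPKM in NC and 0.465 ± 0.298 in H24. A gene described as similar to the type I alpha-1 chain fell in H8/NC by 1.05 (SE 0.41, edgeR adjusted p = 0.302), opposite in direction to COL1A1. COL4A1 and COL6A2 were not analysed here.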
